A study of Mus musculus with 4 samples.

Results

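Genes that encode or switch on enzymes making reactive oxygen or nitric oxide were followed through the cells of mouse small intestinal adenomas, 6 out of the 27514 genes counted in all libraries. They were the dual oxidase Duox2 and its maturation factor Duoxa2, the oxidase Nox1 and its organizer Noxo1, the inducible nitric oxide synthase Nos2, and the phagocyte oxidase Cybb. The 6 genes had been chosen for their levels across cell gates in these libraries, so those levels are given as a description with no test. The comparisons by genotype label and by cell cycle state did not enter the choice and were tested. The comparison by Reg3 level was also tested, but its sides differed in their share of villus-tip cells, a gate used in the choice.

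Adenomas came from C57BL/6 mice aged 11 weeks and labelled male. ApcMin mice carried ApcMin/+ with Lef1 +/+, and VApcMinL mice carried ApcMin/+ with Lef1 fl/fl and Villin-Cre, a transgene that is active from development on in the intestinal epithelium and not in immune cells. Every library thus carried the ApcMin allele, and normal intestine was not analysed here. There were 2 libraries per label, each from several pooled, unsorted tumors, and the 10x 3′ kit was version 2 for replicate 1 and version 3 for replicate 2. The libraries held from 44660305 to 128247396 unique molecular identifiers (UMIs). Values are listed throughout in the order ApcMin replicate 1, VApcMinL replicate 1, ApcMin replicate 2, VApcMinL replicate 2. Nothing in the labels says that the libraries of a label came from separate litters or days, and p values measure only the spread among these 4 libraries.

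The labels were in part contradicted by the counts. In adenoma cells Lef1, the targeted gene, stood at 8.88, 29.5, 35.01 and 22.3 CPM, that is, UMIs of the gene per 1000000 UMIs of the gated cells of a library, so within kit 2 the library labelled VApcMinL held more Lef1 than the library labelled ApcMin. Because the kits read the 3′ end, RNA from a floxed allele that has lost exons may still give UMIs, and the level of Lef1 checks the labels only in part. Xist, made from the inactive X chromosome of females, was at 1166 and 321 CPM in adenoma cells of the 2 VApcMinL libraries and at 0.101 and 0.0717 in the ApcMin libraries. Nox1 and Cybb lie on the X chromosome. Libraries are therefore named by their labels, and genotype and sex cannot be told apart in these samples. Libraries shared at most 11 barcodes in any pair.

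Dual oxidases sit in the apical membrane of epithelial cells and release hydrogen peroxide toward the lumen. They leave the endoplasmic reticulum only with a maturation factor, which for DUOX2 is DUOXA2. NOX1 makes superoxide together with p22phox (Cyba), the organizer NOXO1, the activator NOXA1 and Rac1, and is best known from the colon. CYBB is the catalytic subunit of the NADPH oxidase of phagocytes and works with Cyba, Ncf1, Ncf4 and Rac2. NOS2 makes nitric oxide from arginine, needs tetrahydrobiopterin made through Gch1, and competes with the arginases for its substrate.

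Duox2 and Duoxa2 lie head to head on chromosome 2. On GRCm38, Duox2 (ENSMUSG00000068452) spans chr2:122279247-122298449 on the minus strand and Duoxa2 (ENSMUSG00000027225) spans chr2:122298900-122302885 on the plus strand, with 450 bases between the annotated gene models. The promoter windows of this pair are shown because both genes are read outward from the same short interval and their levels moved side by side across cells. Each window runs 5′ to 3′ on the strand of its gene from 250 bases before to 50 after the RefSeq start (GRCm38.p6), and capitals mark TATAAA. The first window is chr2:122298178-122298477, minus strand, and the second is chr2:122298650-122298949, plus strand. The RefSeq starts lie 673 bases apart, and that of Duox2 lies inside its annotated gene model. Most of the Duox2 window therefore falls within that model and not in the 450 bases between the models.

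Duox2: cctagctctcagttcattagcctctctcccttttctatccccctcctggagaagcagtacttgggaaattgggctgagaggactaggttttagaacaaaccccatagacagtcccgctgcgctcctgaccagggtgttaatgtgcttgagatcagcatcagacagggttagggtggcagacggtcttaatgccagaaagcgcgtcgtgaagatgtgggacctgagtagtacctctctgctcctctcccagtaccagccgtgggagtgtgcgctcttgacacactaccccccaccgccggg

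Duoxa2: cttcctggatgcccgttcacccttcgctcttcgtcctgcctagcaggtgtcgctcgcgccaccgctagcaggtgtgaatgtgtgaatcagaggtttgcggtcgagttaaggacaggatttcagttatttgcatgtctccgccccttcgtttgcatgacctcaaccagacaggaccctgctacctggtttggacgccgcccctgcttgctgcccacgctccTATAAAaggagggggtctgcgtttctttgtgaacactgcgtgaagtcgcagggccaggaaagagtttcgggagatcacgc

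In the Duoxa2 window TATAAA began 30 bases before the start, and the Duox2 window held no TATAAA on either strand. TATAAA was present on at least 1 strand in 13.6% of 32851 RefSeq promoter windows of the same length. Neither window held the STAT half-site pair TTCNNNGAA (8.30% of all windows) or TGATAA, the core bound by GATA factors (9.05% of all windows). A match or its absence describes these letters only. GC content was 55.3% in the Duox2 window and 56.7% in the Duoxa2 window, against a mean of 53.8% over all windows. Of the 6 genes, 5 had a promoter entry, and Nos2 had none.

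The other members lie apart. Nox1 (ENSMUSG00000031257) spans chrX:134086421-134221956 on the minus strand, Noxo1 (ENSMUSG00000019320) spans chr17:24696234-24700529 on the plus strand, Nos2 (ENSMUSG00000020826) spans chr11:78920787-78960254 on the plus strand, and Cybb (ENSMUSG00000015340) spans chrX:9435252-9487771 on the minus strand. The annotated Nox1 model overlaps Xkrx over 13034 bases on the same strand, so reads there are uncertain between the genes. That overlap lies away from the Nox1 3′ end, where the kits read. Nox1 also overlaps Cstf2 over 399 bases at its 3′ end and Arl13a over 20528 bases, each on the opposite strand. Noxo1 overlaps Tbl3 over 2581 bases and Duoxa2 overlaps Duoxa1 over 695 bases, both on the opposite strand.

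Cells were barcodes with at least 2000 UMIs and at most 20% mitochondrial UMIs, which left 2472, 2537, 2071 and 4217 cells. The mitochondrial limit removed 61.6% of such barcodes in ApcMin replicate 2 and from 20.4% to 26.5% in the other libraries. Gates on marker genes gave 407, 503, 340 and 2001 adenoma cells, which carry Wnt target genes such as Notum, Nkd1 and Wif1. They gave 305, 505, 653 and 523 enterocytes and 32, 295, 386 and 177 villus-tip cells, which are enterocytes that also carry at least 5 of 7 villus-tip markers such as Ada, Nt5e and Klf4. Crypt cells numbered 84 to 164, secretory cells 51 to 107, macrophages 21 to 92, C1q-negative myeloid cells 7 to 16, and T cells 51 to 143 per library. T cells and barcodes under 100 UMIs, which are mostly droplets without a cell, gave the level that free RNA can reach. The 8 immune lineage markers summed to at most 41.4 CPM in any epithelial gate and to at least 7468 in T cells and both myeloid gates. The B or plasma cell list was less clean. It summed to 492 to 787 CPM in the epithelial gates of ApcMin replicate 1, to 83.0 to 138 in VApcMinL replicate 1 and to 5.94 to 9.46 in the kit 3 libraries, and it reached 3771 CPM in macrophages of VApcMinL replicate 2. The adenoma gate held from 51.6 to 83.2 CPM of the stromal list, against at most 21.9 in the other epithelial gates, and the part of RNA of either kind in the levels was not tested.

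Duox2 was highest in villus-tip cells in all 4 libraries, at 157, 308, 234 and 58.4 CPM (60, 1225, 2587 and 179 UMIs). The mean was 189 ± 107 CPM (SD, n = 4 libraries). VApcMinL replicate 1 was highest and VApcMinL replicate 2 lowest, so the spread lay between the libraries of 1 label. Secretory cells came next at 24.5 ± 11.1, enterocytes at 19.3 ± 9.16 and crypt cells at 16.6 ± 3.55, and the ranges of these 3 gates overlapped. Villus-tip cells stood above enterocytes by 8.35, 10.2, 11.5 and 7.41 times within the libraries.

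Adenoma cells held little Duox2. Their levels were 3.33, 5.78, 2.58 and 1.39 CPM, below those of crypt cells of the same library by 6.58, 2.52, 6.03 and 10.5 times. These levels also lay below those of barcodes under 100 UMIs, which ranged from 9.55 to 27.2 CPM, and within the range of T cells, 0 to 7.02. The Duox2 levels of secretory cells, crypt cells and enterocytes, unlike those of villus-tip cells, overlapped the range of the barcodes under 100 UMIs.

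Duoxa2, whose product brings DUOX2 to the cell surface, followed the same order at its head. In villus-tip cells it stood at 157, 276, 308 and 73.7 CPM, with a mean of 204 ± 108 (SD, n = 4), and VApcMinL replicate 2 was again lowest. The next levels were 26.9 ± 15.6 in secretory cells, 18.8 ± 12.2 in enterocytes and 11.9 ± 2.46 in crypt cells, which overlapped. Villus-tip cells exceeded enterocytes by 7.03, 8.25, 20.8 and 15.9 times. Adenoma cells held 7.06, 8.35, 3.59 and 2.06 CPM, below the barcodes under 100 UMIs in each library. Those barcodes ranged from 9.46 to 44.1 CPM. The Duoxa2 levels of secretory cells, enterocytes and crypt cells, unlike those of villus-tip cells, overlapped that range.

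Shares of cells with at least 1 UMI were also highest in villus-tip cells. Duox2 was detected in 53.1%, 43.4%, 56.2% and 29.9% of villus-tip cells, whose median depths ran from 11768 to 28187 UMIs. In T cells it was detected in 1.16%, 2.098%, 0% and 0%, at median depths of 2542 to 3058 UMIs. A count of 0 of 51 and of 104 T cells allows a share with a UMI of up to 5.88% and 2.88%. After each cell was thinned to 2000 UMIs, the mean share was 24.0% in villus-tip cells, 3.30% in enterocytes, 3.38% in crypt cells, 0.853% in adenoma cells and 0.815% in T cells. The thinned share in adenoma cells was close to that in T cells, which held only 4 Duox2 UMIs in 384 cells before thinning. Duoxa2 showed mean thinned shares of 20.3% in villus-tip cells, 1.09% in adenoma cells and 0.466% in T cells.

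**Figure D1:**
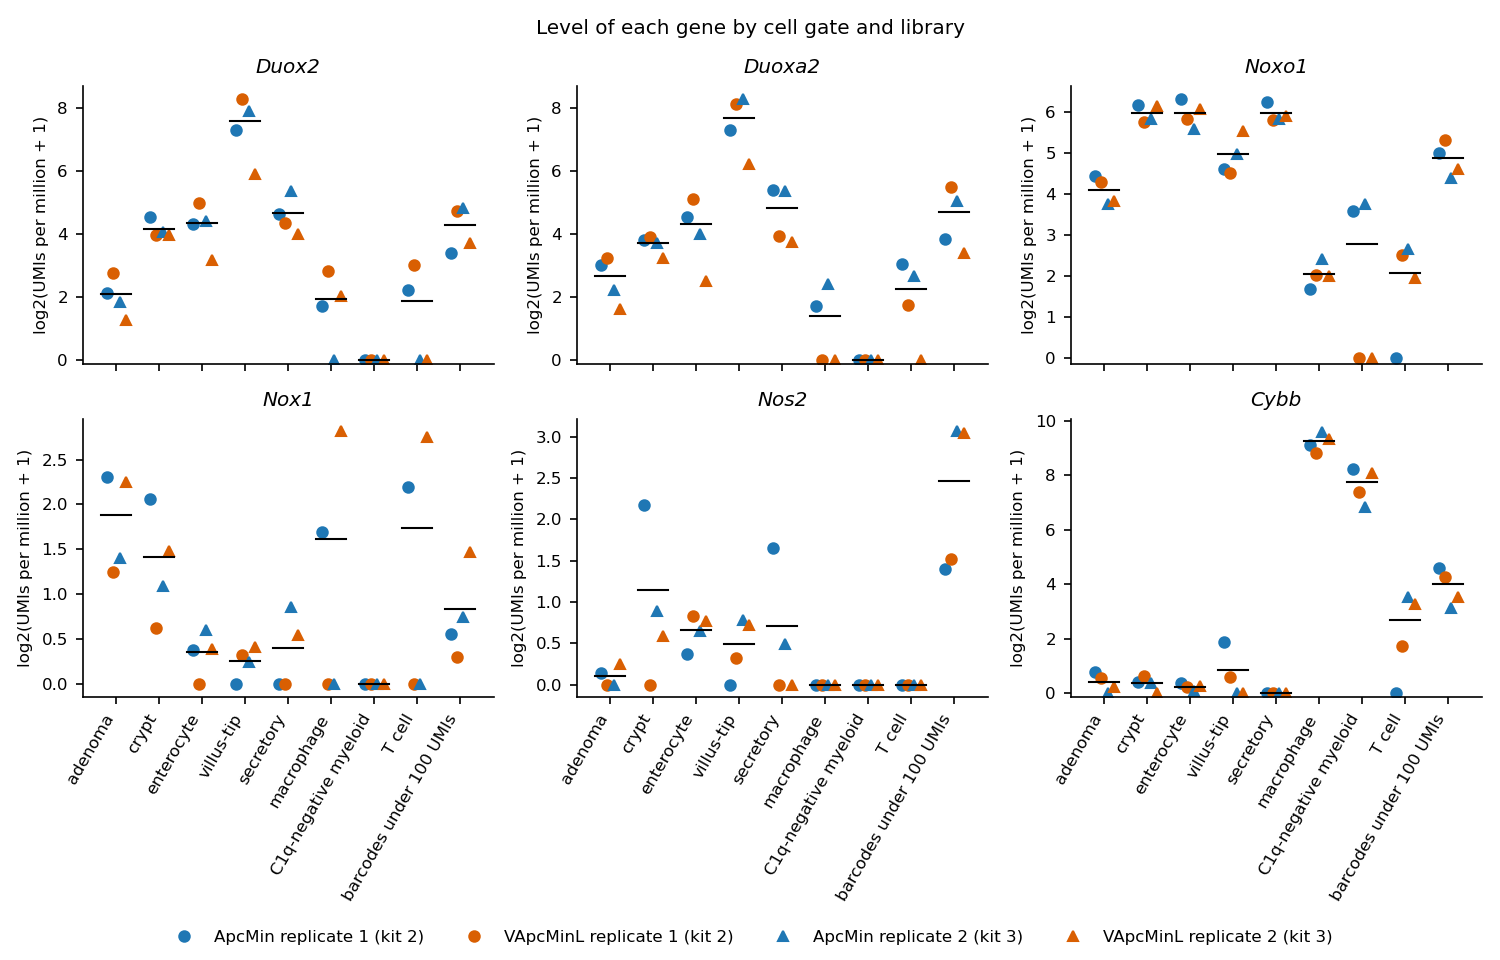
Levels of the 6 genes by gate, as log2(CPM + 1), with 1 point per library (blue ApcMin, orange VApcMinL, circles kit 2, triangles kit 3) and a black bar at the mean of the 4 libraries. Duox2 and Duoxa2 peak in villus-tip cells, Noxo1 is even across crypt, enterocyte and secretory cells, Cybb is high in both myeloid gates, and single UMIs lift some points of the small immune gates.

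Among absorptive cells (enterocytes and villus-tip cells together), the dual oxidase pair was highest in those with the most villus-tip markers. In cells with 0 to 2 of the 7 markers, Duox2 stood at 9.02, 27.5, 24.2 and 10.7 CPM. With 4 markers it stood at 57.5, 41.7, 21.5 and 4.58, so in the kit 3 libraries it did not rise over the lower marker counts. It stood at 106, 284, 269 and 71.6 with 6 markers and at 328, 757, 641 and 146 with all 7. Each library showed its highest Duox2 level in the cells with all 7 markers. Duoxa2 in those cells stood at 384, 604, 885 and 227 CPM. The highest bin of ApcMin replicate 1 held 8 cells and 35 Duox2 UMIs, so its level is imprecise. Median depth was 13118, 13370, 20060 and 10046 UMIs in the cells with all 7 markers and 10767, 12269, 11308 and 18645 in those with 0 to 2, so in VApcMinL replicate 2 the cells with all markers were the shallower ones.

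Even among villus-tip cells the transcripts were unevenly spread. The 10% of villus-tip cells with the most Duox2 held 55.0%, 63.0%, 51.3% and 70.9% of its UMIs. For Duoxa2 the corresponding shares were 70.0%, 63.5%, 58.9% and 78.8%. For Cybb in macrophages the top 10% of cells held from 26.5% to 32.6%.

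**Figure D2:**
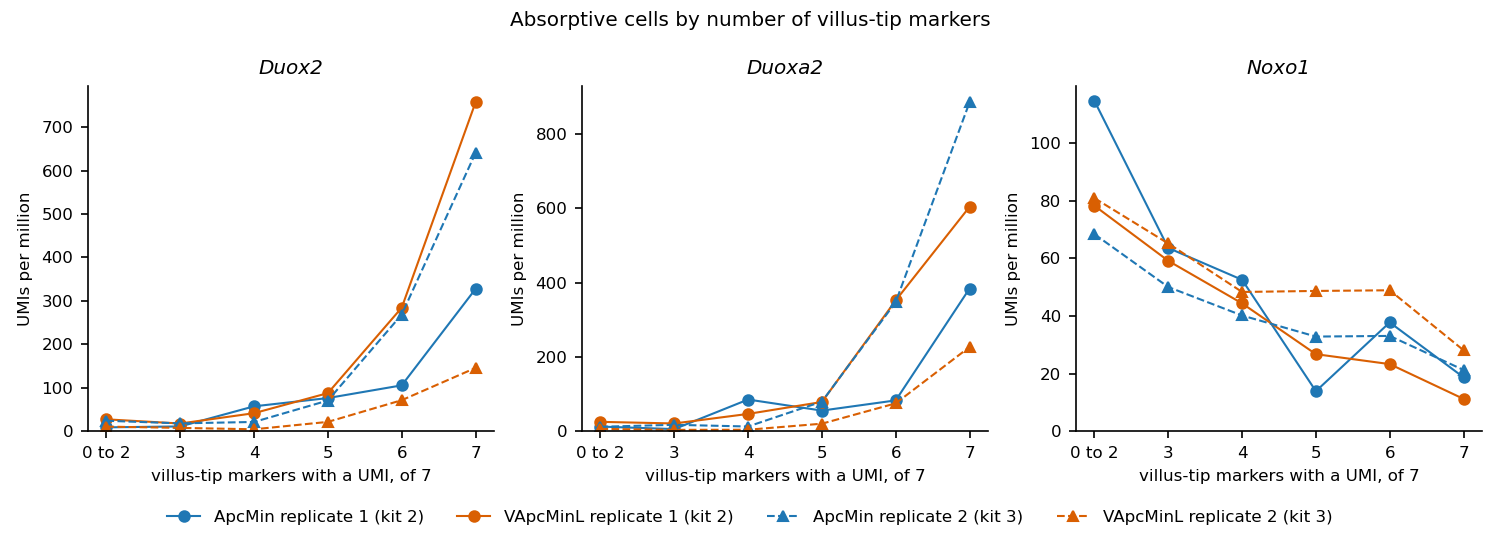
Levels of Duox2, Duoxa2 and Noxo1 (CPM) in absorptive cells grouped by how many of the 7 villus-tip markers had a UMI, with 1 line per library (blue ApcMin, orange VApcMinL, solid kit 2, dashed kit 3). Duox2 and Duoxa2 have their highest level at 7 markers in all 4 libraries, whereas Noxo1 is highest at 0 to 2 markers.

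Duox2 and Duoxa2 were found in the same cells. Among villus-tip cells with a Duox2 UMI, Duoxa2 was detected in 76.5%, 75.0%, 74.2% and 64.2%. Among villus-tip cells without one, it was detected in 6.67%, 7.19%, 7.69% and 12.1%. In crypt cells the shares were nearer to each other, at 32.4%, 35.3%, 44.8% and 24.2% against 16.8%, 18.4%, 34.5% and 8.40%. Among adenoma cells they were 55.6%, 28.6%, 22.6% and 23.9% against 8.48%, 10.8%, 7.44% and 3.72%. Adenoma cells with a Duox2 UMI were deeper in all 4 libraries, for example at a median of 29044.5 against 21659 UMIs in ApcMin replicate 1. Villus-tip cells with one were deeper in 3 libraries and shallower in ApcMin replicate 2 (27918 against 28571), and the part of depth in these shares was not tested.

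**Figure D3:**
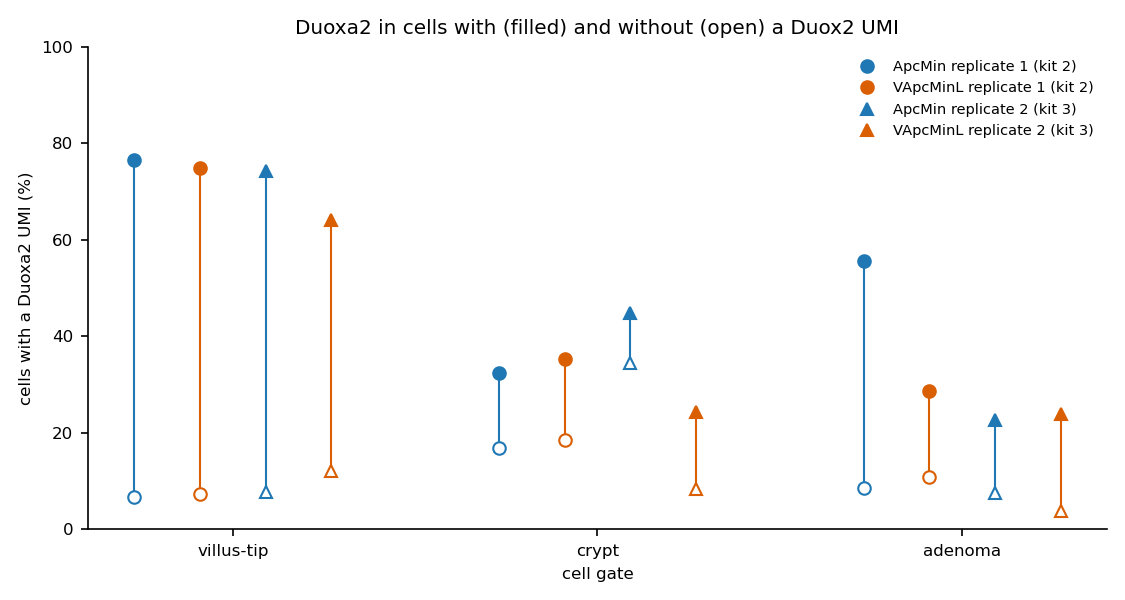
Share of cells (percent) with a Duoxa2 UMI among cells with and without a Duox2 UMI, by gate, with 1 point per library (blue ApcMin, orange VApcMinL, circles kit 2, triangles kit 3). In villus-tip cells the shares are 64.2% to 76.5% against 6.67% to 12.1%, and they lie closer together in crypt cells.

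Noxo1, the organizer that keeps the NOX1 complex active, had a different distribution. It stood at 70.5, 52.8, 55.5 and 68.9 CPM in crypt cells and at 78.3, 55.3, 46.8 and 65.6 in enterocytes. Secretory cells held 61.1 ± 9.35, so these 3 gates could not be ordered beyond their spread. Villus-tip cells held 23.5, 21.9, 30.4 and 44.996, and enterocytes exceeded them by 3.33, 2.52, 1.54 and 1.46 times. Across villus-tip markers Noxo1 went from 115, 78.2, 68.4 and 80.9 CPM at 0 to 2 markers to 18.7, 11.2, 21.3 and 28.1 at all 7. The first and last groups were thus ordered opposite to those of Duox2 and Duoxa2 in every library.

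Adenoma cells held less Noxo1 than crypt cells. Their levels were 20.5, 18.6, 12.4 and 13.2 CPM, lower by 3.44, 2.84, 4.47 and 5.20 times within the libraries, and the groups did not overlap. Barcodes under 100 UMIs held 30.7, 38.5, 19.8 and 23.3, above the adenoma cells in each library. After thinning, Noxo1 was detected in a mean of 2.68% of adenoma cells, 8.99% of crypt cells, 10.4% of enterocytes and 0.905% of T cells.

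Nox1, the catalytic partner of Noxo1, was sparse everywhere. In adenoma cells it stood at 3.93, 1.38, 1.65 and 3.75 CPM (39, 15, 23 and 233 UMIs), with a mean of 2.68 ± 1.35 (SD, n = 4). VApcMinL replicate 2 gave most of these UMIs and held most of the adenoma cells. The adenoma level exceeded that of enterocytes, 0.277 ± 0.211, and that of barcodes under 100 UMIs in all 4 libraries. In crypt cells Nox1 stood at 3.17, 0.539, 1.13 and 1.78, which overlapped the adenoma range. T cells averaged 2.33 ± 2.83 from 3 UMIs in all, and the thinned shares were 0.643% in adenoma cells and 0.481% in T cells, so the share of adenoma cells was not separable from background at this depth.

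Nox1 and Noxo1 were weakly joined at the level of cells. Among adenoma cells with a Nox1 UMI, Noxo1 was detected in 35%, 71.4%, 25% and 33.1%, against 22.7%, 20.97%, 16.6% and 19.8% of the others. The share of 71.4% rests on 7 cells, whose median depth was 36145 UMIs against 18590 in the others. By gate means the order was another one. The adenoma gate had the highest mean Nox1 level of the epithelial gates and less Noxo1 than crypt cells or enterocytes, while enterocytes held almost no Nox1.

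Cybb, the electron-carrying subunit of the phagocyte oxidase, marked the myeloid gates. Macrophages held 552, 449, 771 and 634 CPM (247, 147, 178 and 210 UMIs), with a mean of 601 ± 136 (SD, n = 4). Cybb was detected in 83.7%, 89.3%, 81.0% and 91.7% of macrophages. C1q-negative myeloid cells were gated on markers such as S100a8, Csf3r and Il1b, but S100a8 and S100a9 were at 0 there in both ApcMin libraries, S100a9 also in VApcMinL replicate 1, and Retnlg in all 4. They held 297, 164, 113 and 271, below the macrophages of the same library by 1.86, 2.74, 6.82 and 2.34 times. This gate held 7 to 16 cells per library, too few for the summed test. Cybb stood at 2.61 CPM or less in every epithelial gate, so among the 6 genes it was not an epithelial oxidase here. Between 27.8% and 38.3% of all Cybb UMIs of a library fell in kept cells that entered no gate.

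Nos2 was close to its detection limit in every gate. It had 1, 0, 0 and 12 UMIs in adenoma cells and 11, 0, 3 and 2 in crypt cells, and 9 of the 11 came from 1 cell. Macrophages, the textbook source of inducible nitric oxide synthase, held 0 UMIs in all libraries. Counts of 0 in 92, 56, 21 and 48 macrophages allow a share with a UMI of up to 3.26%, 5.36%, 14.3% and 6.25%. Whole libraries held 41, 23, 82 and 158 Nos2 UMIs, of which 15, 6, 22 and 23 fell in the gates. Barcodes under 100 UMIs held 1.63, 1.86, 7.36 and 7.26 CPM (7, 8, 33 and 33 UMIs). Their mean was above that of every gate, but in ApcMin replicate 1 crypt cells (3.49) and secretory cells (2.14) stood higher. In VApcMinL replicate 2 a further 34 UMIs lay in barcodes over the mitochondrial limit. The cells these UMIs came from cannot be told.

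The partner genes divided the oxidases further. Cyba, the p22phox subunit shared by NOX1 and CYBB, averaged 1715 ± 335 CPM in macrophages, 642 ± 136 in adenoma cells, 271 ± 37.0 in crypt cells and 139 ± 34.2 in enterocytes (SD, n = 4). Adenoma cells exceeded crypt cells without overlap. Noxa1, the activator of NOX1, averaged 28.1 ± 9.28 in adenoma cells, 37.9 ± 18.9 in crypt cells and 22.4 ± 8.86 in secretory cells, against 2.27 ± 0.646 in enterocytes. Ncf1 and Ncf4, cytosolic subunits of the phagocyte oxidase, each averaged 172 in macrophages, and no epithelial gate averaged over 0.478 for either. Duox1, the other dual oxidase, averaged at most 0.243 CPM in the adenoma, crypt, enterocyte and villus-tip gates.

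Genes around nitric oxide were present in gates where Nos2 was close to its detection limit. Gch1, the first enzyme of tetrahydrobiopterin synthesis, averaged 348 ± 22.4 CPM in villus-tip cells and 102 ± 29.9 in enterocytes, and the ranges did not overlap. Arg2, the mitochondrial arginase, averaged 527 ± 137 in enterocytes and 6.55 ± 1.59 in adenoma cells. Arg1, the cytosolic arginase, averaged 246 ± 207 in macrophages with a range from 39.7 to 489. Gchfr, the feedback regulator of Gch1, averaged 98.2 ± 3.57 in enterocytes and 102 ± 14.9 in villus-tip cells, against 6.65 ± 1.39 in crypt cells.

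**Figure D4:**
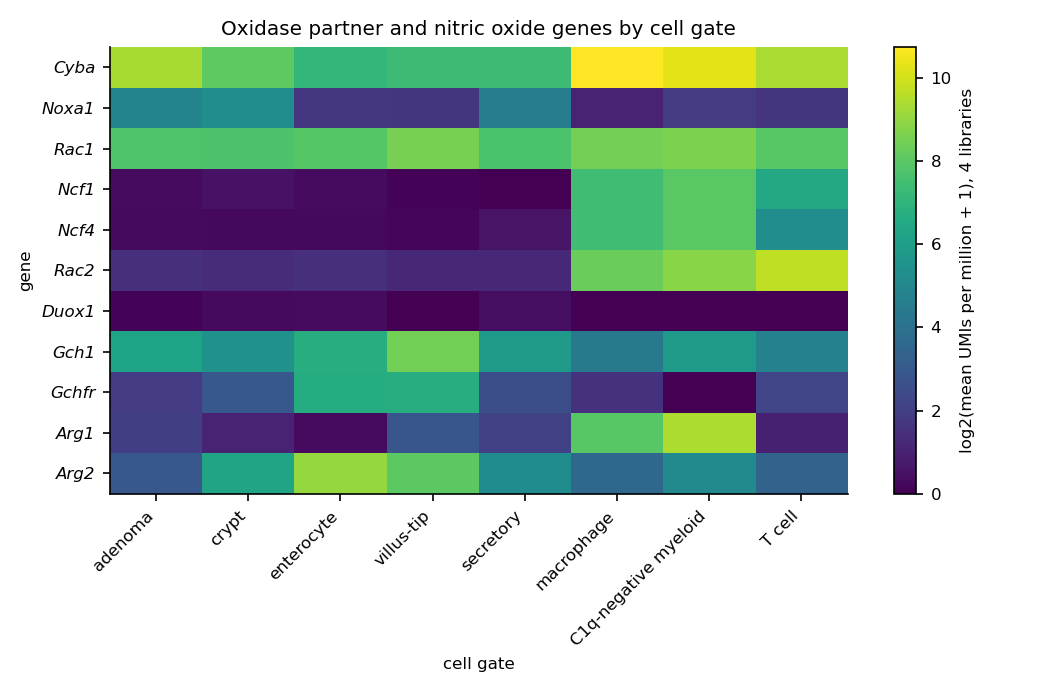
Mean levels over 4 libraries of 11 oxidase partner and nitric oxide genes, by gate, on a log2(CPM + 1) scale with the values as shades. Cyba spans immune and adenoma cells, Noxa1 is found in adenoma, crypt and secretory cells, Ncf1 and Ncf4 lie in the immune gates, and Gch1 is highest in villus-tip cells. Rac2 is also an immune lineage marker of the gates.

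Other genes with like patterns were ranked by Pearson's r of log2 levels over 32 points, the 8 gates in 4 libraries, among 10974 genes. The points share libraries and gates, so r is a description with no test. Duoxa2 was the gene most like Duox2 (r = 0.91), followed by Stk25, Slc17a4, Sfn and Rhpn2. Cd55 was the gene most like Duoxa2 (r = 0.92), followed by Trim40, with Duox2 the third, then Plekhb2. For Noxo1 the list was Gmds (r = 0.90), Tspan8, Thrb, Grtp1 and Lgals4, the last of them also an epithelial lineage marker of the gates. Nox1 was most like Ccnf (r = 0.78), Znrf3, Cdr2l, Trip13 and Smim10l2a, whereas its r with Noxo1 was -0.14. Cybb was most like Aif1 (r = 0.98), I830077J02Rik, C5ar1, Slc11a1 and Scimp. For Nos2 no gene passed r = 0.67, which belonged to Abat, and Ces1d, Rgn, Slc6a4 and Nr5a2 followed.

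The first tested comparison asked whether the genes differed between libraries labelled VApcMinL and ApcMin, with counts summed per library and gate and the kit as a block. A call was an adjusted p under 0.05 in edgeR's quasi-likelihood test, adjusted by Benjamini-Hochberg over all genes tested. In villus-tip cells 0 of the 3 members with enough counts were called, where 0.0878% of 9111 genes were called (0.0439% in each direction). Duox2 differed by -0.55 on the log2 scale (VApcMinL minus ApcMin, SE 0.48), Duoxa2 by -0.66 (SE 0.47) and Noxo1 by 0.39 (SE 0.32), each with an adjusted p of 1.00 in edgeR's test. In adenoma cells 0 of 4 members were called, where the background was 0% of 12811 genes. There 26 genes had an unadjusted p under 0.05, no member among them, and DESeq2 called 2 genes. Even Xist, which differed by 12.8 (SE 0.42) in adenoma cells, was not called (adjusted p = 0.179 in edgeR's test). The lack of calls in this gate therefore says little about the members. Nox1 differed by -0.12 in adenoma cells with an SE of 0.94, which leaves room for a large difference either way.

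The remaining gates gave no called member either. In crypt cells 0 of 3 members were called, where 0.00985% of 10150 genes were called. In enterocytes 0 of 3 were called, where 0.00946% of 10566 genes were called, and in macrophages 0 of 1, where 0.047% of 4258 genes were called (0.0235% in each direction). Cybb in macrophages differed by -0.28 (SE 0.32). No member had an unadjusted p under 0.05 in any of the 14 tests. The called genes were few, and Xist was called in crypt cells, enterocytes, villus-tip cells and macrophages, but not in adenoma cells. The other calls, named after their values were seen, were Sst, Mt2 and Pitx1 (higher in libraries labelled VApcMinL) and Hba-a1, Hbb-bt, Fabp6 and Pyy (lower) in villus-tip cells, and Lyz1 (lower) in macrophages. Of the genes in the 4 pathway lists (11 oxidase partners, 13 nitric oxide genes, 18 peroxide genes and 16 inducible defence genes), 0 were called in any gate, and their unadjusted p values reached 0.000325 for Cxcl10 in macrophages.

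A test of whether the label effect differed between adenoma cells and enterocytes called 0 of the 4 members tested and 0% of 13038 genes with edgeR, and 306 genes had an unadjusted p under 0.05, no member among them.

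The kit pairs went opposite ways. Of 14 member and gate pairs, 12 had differences of opposite sign in the 2 kits, and Duox2 in crypt cells and Cybb in macrophages were the exceptions. In villus-tip cells the library labelled VApcMinL differed in Duox2 by 0.97 on the log2 scale in kit 2 and by -1.997 in kit 3. For Duoxa2 the differences were 0.81 and -2.06. In enterocytes Duox2 differed by 0.68 and -1.34, and Duoxa2 by 0.58 and -1.63. In adenoma cells Nox1 differed by -1.46 and 1.15. Cybb in macrophages differed by -0.29 and -0.28. With 1 library per label and kit there is no replicate check within a kit. Fabp6, an ileal bile acid carrier looked up after its call, stood at 0, 0.504, 898 and 82.2 CPM in villus-tip cells, so it differed between the kits and within kit 3. The summed villus-tip markers in villus-tip cells were 19301, 22548, 13808 and 17751 CPM. Barcodes over the mitochondrial limit held 5.10%, 4.53%, 24.8% and 10.4% of all Duox2 UMIs of a library. For Duoxa2 they held 7.83%, 4.76%, 15.9% and 5.88%. The part of any of these in the Duox2 and Duoxa2 levels was not tested.

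**Figure D5:**
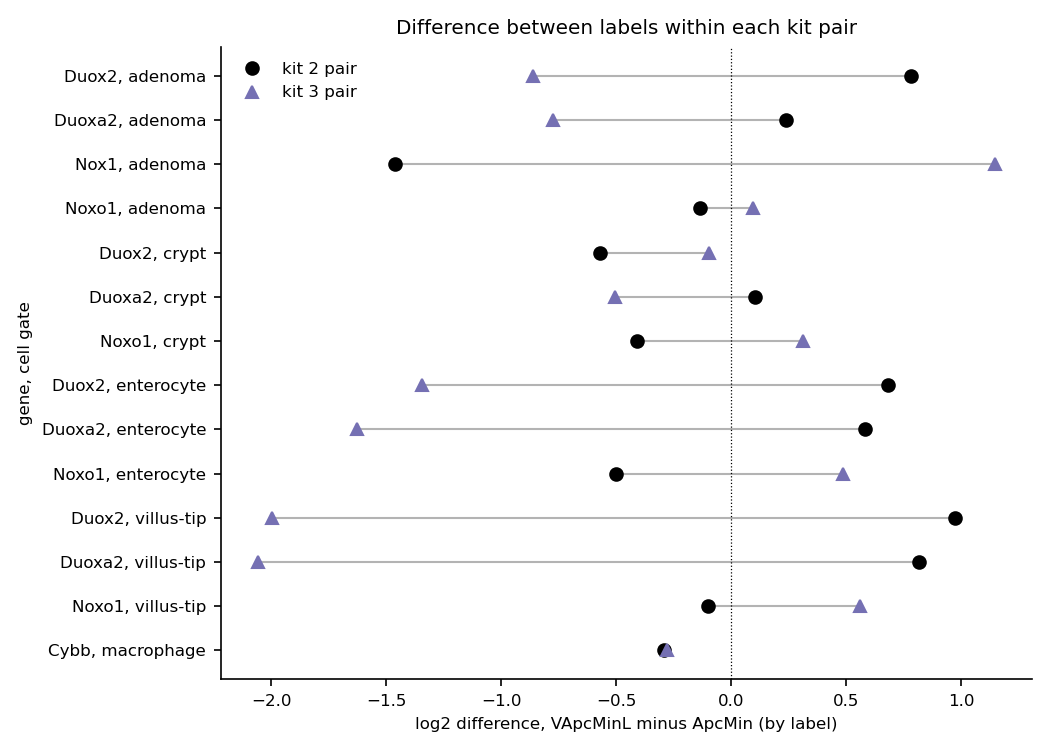
Difference between the library labelled VApcMinL and the one labelled ApcMin within each kit (log2 scale), for the tested member and gate pairs, with kit 2 as circles and kit 3 as triangles. Of 14 pairs, 12 have the kits on opposite sides of 0, and Cybb in macrophages sits at -0.29 and -0.28.

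Cell cycle state was compared within adenoma cells. Cycling cells, with UMIs of at least 5 of 8 mitotic genes, numbered 188, 172, 144 and 956, and non-cycling cells, with at most 1, numbered 103, 217, 122 and 504. Counts were summed per library and state with the library as a block. Of the 4 members tested, 0 were called, although 44% of 11574 genes were called (21.5% higher and 22.5% lower in cycling cells). Noxo1 stood at 20.3, 21.3, 13.1 and 13.4 CPM in cycling cells and at 21.8, 13.6, 9.67 and 10.8 in non-cycling cells, so it was higher in 3 of 4 libraries. Its difference was 0.38 on the log2 scale (SE 0.14, adjusted p = 0.0550 in edgeR's quasi-likelihood test). Without ApcMin replicate 1 it was 0.50 (adjusted p = 0.0246 in edgeR's test).

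The other members were further from a call. Duoxa2 differed by -0.55 (SE 0.25, adjusted p = 0.101 in edgeR's test), Duox2 by 0.44 (SE 0.32, adjusted p = 0.292) and Nox1 by 0.43 (SE 0.58, adjusted p = 0.579). Nox1 was at 9.33 CPM in non-cycling and 2.26 in cycling cells of ApcMin replicate 1 and went the other way in the other 3 libraries. Cycling cells were deeper, with medians of 27649 to 48174 UMIs against 13888 to 21947.5, and its part in these values was not tested.

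The counts of partner genes stand against the 44% of all genes called in this split. Of the 4 oxidase partners tested out of 11, Rac1, the GTPase that activates NOX1, rose in cycling cells by 0.40 (SE 0.07). Noxa1 fell by 0.39 (SE 0.13) and Rac2, the blood cell form, fell by 1.70 (SE 0.46). Rac2 is also an immune lineage marker, and adenoma cells were kept with at most 2 of these markers. Its level in these cells was thus limited by the gate, and the part of the gate in its difference was not tested. Of 10 nitric oxide genes tested out of 13, 1 rose and 2 fell, a smaller share than over all genes. Ddah2, which breaks down an inhibitor of nitric oxide synthases, fell by 1.46 (SE 0.13), Pts of tetrahydrobiopterin synthesis fell by 0.38 (SE 0.07), and Ass1 of arginine synthesis rose by 0.49 (SE 0.17). Of 13 peroxide-handling genes tested out of 18, 5 rose and 3 fell, with Prdx4 at 0.45, Txnrd1 at 0.34 and Gpx2 at 0.44 among the rises. Of 11 inducible defence genes tested out of 16, 6 fell and 0 rose, among them the interferon-inducible Zbp1 (-1.02, SE 0.19), Nfkbiz (-0.63, SE 0.08) and the antibody transporter Pigr (-0.42, SE 0.08). The 6 of 11 stand beside 22.5% of all genes that fell. Median differences were -0.38 for the defence list, -0.30 for the oxidase partners, 0.10 for the nitric oxide genes and -0.00025 for the peroxide genes, against -0.05 over all genes tested, and no difference between a list and all genes was tested.

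Reg3b and Reg3g encode antimicrobial lectins that enterocytes induce on contact with microbes, as they do the dual oxidase. Absorptive cells with the top 25% of Reg3b plus Reg3g levels in a library were compared with the lower 50%. Of 3 members tested, 0 were called, where 4.07% of 9484 genes were called (1.03% higher and 3.04% lower in Reg3-high cells). Duox2 stood at 16.02, 82.3, 68.4 and 25.6 CPM in Reg3-high cells and at 39.6, 193, 158 and 18.4 in Reg3-low cells. It was lower in Reg3-high cells in 3 of 4 libraries, and VApcMinL replicate 2 went the other way. The difference was -0.85 (SE 0.24, adjusted p = 0.0778 in edgeR's quasi-likelihood test). Duoxa2 differed by -0.98 (SE 0.30, adjusted p = 0.112) and Noxo1 by 0.40 (SE 0.11, adjusted p = 0.0674). Noxo1 was higher in Reg3-high cells in 4 of 4 libraries.

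Villus-tip cells moved with this split. They made up 2.35%, 22.0%, 30.4% and 15.4% of Reg3-high cells and 16.1%, 51.2%, 43.9% and 35.1% of Reg3-low cells. The members had been chosen on levels that include the villus-tip gate, so this split is not a test apart from that choice. With villus-tip cells left out, an alternative added after seeing the data, Duox2 differed by 0.18 (adjusted p = 0.894 in edgeR's test), Duoxa2 by -0.05 (adjusted p = 1.00) and Noxo1 by 0.17 (adjusted p = 0.731). Without VApcMinL replicate 2, with villus-tip cells kept, Duox2 differed by -1.22 (adjusted p = 0.000351 in edgeR's test) and Duoxa2 by -1.47 (adjusted p = 0.000451). Among the partner genes Gch1 fell by 0.74 (SE 0.12, adjusted p = 0.00758 in edgeR's test) in Reg3-high cells, the 1 of 7 nitric oxide genes tested that was called. Reg3a, a related lectin, rose by 1.65 (SE 0.23), and the peroxidase Gpx2 rose by 0.65 (SE 0.13). The 2 oxidase partners tested, Rac1 and Cyba, differed by -0.18 and 0.09 and were not called.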

How the data were processed

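Single-cell RNA sequencing counts of 4 libraries of small intestinal adenomas were used. The authors deposited raw UMI counts per gene and barcode, made with Cell Ranger 2.1.1 on mm10 according to the study's methods, while the headers of the kit 3 matrices name Cell Ranger 3.1.0. All barcodes were listed. Genes shared by both gene tables (27514 of 27998 and 31053) were kept.

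Gates required UMIs of a minimum number of marker genes, with thresholds set after the marker distributions were seen and from markers alone. The members and gene lists were chosen with earlier results of these data known. No doublets were removed, except in an alternative that left out the highest Scrublet scores (scanpy 1.11.5). Levels are in CPM, the UMIs of a gene per 1000000 UMIs of the gated cells of a library. Single libraries at 0 have a limit of 3 counts, which covers counting error only.

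Sums per library and gate (at least 20 cells) entered a quasi-likelihood fit in edgeR 4.0.16 (R 4.3.3) with TMM scaling, filterByExpr with a count of 10, and Benjamini-Hochberg adjustment. The fit was also run on simulated counts with a fixed dispersion and no library or kit effect. That run does not show how the fit performs at the spread of these libraries. The kit was a block, since the labels give the kit of each replicate number. Deviations from the group means correlated between libraries of 1 kit at r = 0.16 (adenoma), 0.53 (crypt), 0.58 (enterocyte), 0.38 (villus-tip) and 0.37 (macrophage). Named genes are the 6 members, up to 3 genes of each pathway list per comparison by p, the 5 genes most like each member, and Lef1 and Xist. Items withheld here are not reported. Alternatives were RLE scaling, DESeq2 1.42.0, no filter, no block, each library left out, at least 5000 UMIs, at most 10% mitochondrial UMIs, and 1 more marker per gate. With a library left out, comparisons of the labels were fitted without the kit block. GRCm38 coordinates are from GENCODE M21 and promoters from RefSeq.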

Additional observations from a re-analysis of the deposited data

Results flagged for a closer look

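The difference between the library labelled VApcMinL and the library labelled ApcMin had opposite signs in the 2 kits, with counting intervals that did not overlap within either kit, for 6 member and gate pairs. On the log2 scale these were Nox1 in adenoma cells (-1.46 in kit 2 and 1.15 in kit 3), Duox2 in enterocytes (0.68 and -1.34), Duoxa2 in enterocytes (0.58 and -1.63), Noxo1 in enterocytes (-0.50 and 0.49), Duox2 in villus-tip cells (0.97 and -1.997) and Duoxa2 in villus-tip cells (0.81 and -2.06). The difference between the kits was not tested, since each kit holds 1 library per label. The intervals cover counting error only and not the spread between samples, and 10% of villus-tip cells held 51.3% to 78.8% of the Duox2 and Duoxa2 UMIs in each library, so UMIs were not independent.

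Most Nos2 UMIs of each library lay outside the gated cells. The gates held 15, 6, 22 and 23 of 41, 23, 82 and 158 Nos2 UMIs. The mean level of Nos2 in barcodes under 100 UMIs was 4.53 CPM, above its mean in every gate. Crypt cells had the highest gate mean at 1.21, which was 0.452 without ApcMin replicate 1. In that library crypt cells (3.49) and secretory cells (2.14) exceeded the barcodes under 100 UMIs (1.63).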

How the results depend on the processing

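The limits are 4 libraries, labels that cannot be told apart from sex, and few UMIs for Nox1 and Nos2. Some fits were not run because a library held under 20 cells: C1q-negative myeloid cells against macrophages, villus-tip cells at 10% mitochondrial UMIs or with 1 more marker per gate, and macrophages at 5000 UMIs. No member was called in a comparison of the labels under any alternative.

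The number of genes called between the labels was small and unstable, and the causes were not tested. In adenoma cells (0 in the report) it was 2 with DESeq2 and 1 with no filter on low counts. In crypt cells (1) it was 45 with no filter, 2 at 5000 UMIs and 6 at 10% mitochondrial UMIs. In enterocytes (1) it was 5 with DESeq2, 20 with no filter and 8 at 10% mitochondrial UMIs. In villus-tip cells (8) it was 13 with RLE scaling, 2 with DESeq2, 29 with no filter, 5 at 5000 UMIs and 5 without the highest Scrublet scores. In macrophages (2) it was 6 with RLE scaling, 0 with DESeq2, 6 with no filter, 6 at 10% mitochondrial UMIs, 1 with 1 more marker per gate and 9 without the highest Scrublet scores. Leaving out each library in turn gave 0 to 2 calls in adenoma cells, 3 to 13 in crypt cells, 0 to 3 in enterocytes, 0 to 4 in villus-tip cells and 10 to 17 in macrophages, and a lone library was then assumed to vary like the others.

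Without the replicate block, which pairs the libraries of a kit, 0 genes were called in crypt cells, 0 in enterocytes, 0 in villus-tip cells and 1 in macrophages. Between cycling and non-cycling adenoma cells 1271 genes were called without the block in place of 5094, and between Reg3-high and Reg3-low cells 1 in place of 386. Some signs turned without the block: Duox2 in adenoma cells to 0.25, Duoxa2 in enterocytes to 0.023 and the Duoxa2 difference between adenoma cells and enterocytes to -0.13.

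Between Reg3-high and Reg3-low cells 906 genes were called with no filter, 233 at 5000 UMIs, 47 in enterocytes alone and 155 to 364 when each library was left out, and Duox2 turned to 0.18 in enterocytes alone. Leaving out each library gave 3625 to 4751 calls for the cycling split. The label effect differed between adenoma cells and enterocytes for 22 genes with no filter, against 0. With 1 more marker per gate Duox2 turned to 0.12 and Noxo1 to 0.12 in crypt cells.

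Leaving out each library in turn, with no kit block in the fit, changed the sign of most members' label differences. The parts of the library and of the block in these changes were not told apart. In adenoma cells Duox2 ranged from -1.18 to 0.99, Duoxa2 from -1.49 to 0.65, Nox1 from -1.02 to 0.76 and Noxo1 from -0.49 to 0.48. In crypt cells Duoxa2 ranged from -0.69 to 0.20 and Noxo1 from -0.36 to 0.22. In enterocytes Duox2 ranged from -1.36 to 0.61, Duoxa2 from -2.03 to 0.85 and Noxo1 from -0.43 to 0.37. In villus-tip cells Duox2 ranged from -1.74 to 0.69, Duoxa2 from -1.66 to 0.28 and Noxo1 from -0.30 to 0.70.

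Some members passed the threshold of edgeR's test under an alternative, and the fits of the Reg3 split named here kept villus-tip cells. In the cycling split Noxo1 did so with no filter (0.44), without ApcMin replicate 1 (0.50) and with 1 more marker per gate (0.46). In the Reg3 split Duox2 did so with no filter (-0.87), without VApcMinL replicate 2 (-1.22) and with 1 more marker per gate (-1.22), Duoxa2 under these (-1.01, -1.47 and -1.37) and at 10% mitochondrial UMIs (-1.38), and Noxo1 with no filter (0.37).

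Levels moved beyond 1 SD in few cases. With 1 more marker per gate villus-tip cells averaged 331 CPM of Duox2 and 369 CPM of Duoxa2. At 10% mitochondrial UMIs they averaged 355 CPM of Duoxa2, and enterocytes averaged 80.8 CPM of Noxo1. After thinning to 2000 UMIs, crypt cells averaged 50.4 CPM of Noxo1. Of the other alternative values, 220 for single genes kept their direction and their side of the threshold, and 95 counts and levels stayed within 1.5 times or 1 SD of the reported value.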
